A study of Mus musculus with 23 samples.

Results

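The 10 genes described here are Rfpl4, Tcl1, Tcl1b1, Oosp1, Oosp2, Oas1d, Oas1e, Omt2a, Omt2b and E330034G19Rik, taken by symbol from the 56196 genes of each count table, and all 10 passed the filter on low counts in both tables. They are abundant mRNAs of the mouse oocyte. Heterozygous samples labelled Eif4enif1+/- (het) were set against wild-type (WT) samples. Eif4enif1 encodes 4E-T, a partner of the cap-binding protein eIF4E that is found in granules of stored mRNA. Poly(A) RNA was measured in fully grown germinal vesicle (GV) oocytes, which rest in meiotic prophase, and in early embryos. The untreated GV oocytes gave 2 het translatome, 2 WT translatome, 2 het transcriptome and 2 WT transcriptome libraries by T&T-seq, in which the translatome is the mRNA pulled down with ribosomes and the transcriptome the total mRNA of the same specimen. Embryo RNA-seq gave 3 libraries each of het embryos that had stopped at 1 cell after 24 h in culture (arrested), het 2-cell and WT 2-cell embryos after 24 h in culture, and untreated het 1-cell and WT 1-cell embryos. The labels name neither strain nor age nor the structure of the mutant allele, and for embryos they leave unsaid whether the genotype is that of the embryo or of its mother.

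A growing oocyte loads its cytoplasm with mRNA that is stored, translated at set times during maturation and cleared around the first cleavages, when the embryo begins its own transcription. Storage and timed translation depend in part on the poly(A) tail: the cytoplasmic polyadenylation element, bound by the protein CPEB, lies near the polyadenylation signal at the 3′ end of many stored mRNAs, and in Xenopus oocytes 4E-T is one of the proteins found with CPEB on them. Tcl1 encodes a small protein that binds and activates the kinase AKT, and Tcl1b1 is a copy from the same gene cluster. Rfpl4 encodes a RING-finger protein of the oocyte reported to bind cyclin B1 and parts of the ubiquitin and proteasome system. Oosp1 and Oosp2 encode secreted proteins of the oocyte. Oas1d and Oas1e belong to the 2′-5′ oligoadenylate synthetase cluster, whose active enzymes sense double-stranded RNA, and Oas1d is reported to lack that activity. Omt2a and Omt2b are oocyte maturation alpha and beta, abundant mRNAs for which no role can be stated here, and the same holds for E330034G19Rik.

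Of the 10 genes, 8 lie in pairs on one chromosome of mm10. Omt2a (minus strand) and Omt2b (plus strand) are 12.8 kb apart on chromosome 9, Oosp2 and Oosp1 are 6.9 kb apart on chromosome 19, Tcl1b1 and Tcl1 are 50.1 kb apart on chromosome 12 and Oas1e and Oas1d are 119 kb apart on chromosome 5. Rfpl4 lies on chromosome 7 (5109787 to 5116950) and E330034G19Rik on chromosome 14 (24293214 to 24309966). Copies can share reads. Omt2a shared 37.0% of its 50-base stretches of annotated transcript with Omt2b, and Omt2b shared 35.2% with Omt2a, so the split of counts between them is uncertain. The shares with any other gene were 12.4% for Tcl1b1, 10.7% for Oas1e and 6.24% for Oas1d, and 0 for the remaining 5 genes.

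The 3′ ends are shown because they separate the 10 genes into mRNAs with and without a cytoplasmic polyadenylation element. In the last 150 bases of the annotated 3′ end (138 for Oosp2, whose untranslated region is that short), TTTTAT or TTTTAAT was found on the mRNA strand in 6 of the 10, against 23.4% of 18298 coding genes. The motif is in capitals in these 30-base windows, read 5′ to 3′ on the mRNA strand of mm10.
Rfpl4 (chr7:5109910-5109939, minus strand): gaatgctttcctTTTTATttgctataatat
Tcl1 (chr12:105216797-105216826, minus strand): gaatgtgtgggaTTTTATgtggttctattt
Oosp1 (chr19:11667561-11667590, minus strand): gctgtccctgcTTTTAATtgtataaaatct
Omt2a (chr9:78312016-78312045, minus strand): gggttttaacggTTTTATaataaataaaag
Omt2b (chr9:78329555-78329584, plus strand): gggttttaacggTTTTATaataaataaaag
E330034G19Rik (chr14:24309917-24309946, plus strand): attaagagaatgTTTTATgaataataaact
The window is the same in Omt2a and Omt2b. Between the element and the last polyadenylation signal (AATAAA or ATTAAA) lay 4 bases in Omt2a, Omt2b and E330034G19Rik, 20 in Oosp1, 31 in Tcl1 and 44 in Rfpl4.

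Neither form of the element was found in the windows of Tcl1b1, Oosp2, Oas1d and Oas1e, although each held a polyadenylation signal, as did all 10 genes and 80.3% of the coding genes. Here the capitals mark that signal.
Tcl1b1 (chr12:105166589-105166618, plus strand): tgtttttaactaATTAAActttactgtttt
Oosp2 (chr19:11647288-11647317, minus strand): atacatcaatgaAATAAAggctcagcttat
Oas1d (chr5:120921623-120921652, plus strand): attaaagcaaaacgcattgaATTAAActaa
Oas1e (chr5:120786307-120786336, minus strand): aaaatgcattgaATTAAActaaaatgaatt
The last AATAAA or ATTAAA ended 87 bases before the annotated transcript end in Oosp1, 93 in Oas1e and 4 to 38 in the other genes. A match is a description of the letters. It does not show that a protein binds there or that AATAAA or ATTAAA is the signal in use. The absence of these letters from the window says nothing about elements elsewhere.

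Promoters were searched for CAGGTG or CACCTG, a form of the E-box. E-boxes are bound by helix-loop-helix factors, among them FIGLA of the oocyte. RefSeq windows (GRCm38.p6) of 250 bases before to 50 after the start were at hand for 8 of the 10 genes. This form was found on either strand in 6 of them, against 20.2% of 32851 windows. There were 3 in Omt2a, 2 each in Tcl1b1 and Oosp1, 1 each in Rfpl4, Tcl1 and E330034G19Rik and none in Omt2b and Oosp2. The Omt2 pair is shown because its mRNAs share the 30-base 3′ window, while only 1 of its promoter windows holds this form. The general E-box, CANNTG with N any base, had 3 matches in Omt2a and 2 in Omt2b, and 72.3% of all windows held it. Other motifs were searched too. CCAAT or ATTGG was found in Omt2b (3), Rfpl4 (2) and E330034G19Rik (2) alone, against 37.4% of all windows. TAATTG or CAATTA was found only in Omt2b (1), against 8.0%. TATAAA or TTTATA was found only in Rfpl4 (1), against 13.6%. No motif was tested. Capitals mark CAGGTG or CACCTG in the window of Omt2a (chr9:78313999-78314298, minus strand). The window of Omt2b (chr9:78327780-78328079, plus strand) holds neither. Both windows lie within the outer bounds of the genes in GENCODE, which include transcripts with earlier starts.
Omt2a: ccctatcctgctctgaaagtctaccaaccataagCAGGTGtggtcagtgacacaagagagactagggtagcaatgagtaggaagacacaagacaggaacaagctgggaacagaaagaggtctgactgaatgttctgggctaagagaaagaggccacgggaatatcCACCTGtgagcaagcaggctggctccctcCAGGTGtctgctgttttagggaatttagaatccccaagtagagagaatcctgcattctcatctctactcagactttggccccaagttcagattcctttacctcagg
Omt2b: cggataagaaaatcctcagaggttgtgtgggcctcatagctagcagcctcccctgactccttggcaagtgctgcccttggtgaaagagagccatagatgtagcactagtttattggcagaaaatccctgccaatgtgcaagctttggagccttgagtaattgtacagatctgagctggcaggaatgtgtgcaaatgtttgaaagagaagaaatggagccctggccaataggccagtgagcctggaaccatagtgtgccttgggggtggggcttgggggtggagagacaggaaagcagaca

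Library depth was 3.62 M to 50.49 M counts in GV oocytes and 5.6 M to 40.38 M in embryos. Eif4enif1 itself was lower in every het than in every WT library of the same stage and fraction, with 150 and 97.1 against 312 and 270 scaled CPM in the translatome. Of all genes, 24.9% had this in the translatome, 28.5% in the transcriptome, 6.08% at 1 cell and 7.24% at 2 cells. At 2 cells the closest het and WT libraries had 54.9 and 55.3. The edgeR test called Eif4enif1 lower in the translatome (log2 -1.24, adjusted p = 0.0224) and transcriptome (-1.26, adjusted p = 0.0283). It was not called at 1 cell (-1.12, SE 0.41) or 2 cells (-0.60, SE 0.41). Arrested embryos held 110, 28.5 and 62.7. All 10 oocyte markers were above 0 in every GV library, and they summed to 55050 and 27540 scaled CPM in het translatome, 26800 and 67680 in WT translatome and 19400 to 24840 in transcriptome libraries. Het translatome library 1 and WT translatome library 2 thus stood above the others. Scaled CPM are counts per M counts of a library after TMM scaling, which makes libraries of one table comparable for a gene. They are shares of the library, so that fewer cells or embryos and less RNA in each cannot be told apart. Het 1-cell libraries 1 and 3 stood apart from the other embryo libraries: their 100 most abundant genes took 6.34% and 5.53% of counts, against 38.05% in het 1-cell library 2 and 32.06% to 37.59% in WT 1-cell libraries. The 10 genes lay between 1189 and 1956 counts per kb of exon in these 2 libraries, against 5479 to 72290 in het 1-cell library 2. Results that use the het 1-cell group are given with and without both.

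The label of abundant genes held in GV oocytes. By counts per kb of exon, the 10 genes ranked between 15 and 83 among all genes in the WT transcriptome libraries. Whether they are restricted to oocytes cannot be seen here, since no other tissue was measured. In TPM, transcripts per M of a library with counts corrected for exon length, Tcl1 was highest at 4458 ± 730 and Tcl1b1 lowest at 1641 ± 283 in the WT transcriptome (SD, n = 2). Between them came Oas1e, Omt2b, E330034G19Rik, Oosp1, Rfpl4, Omt2a, Oas1d and Oosp2, from 2838 ± 425 down to 1751 ± 70.1. Only Tcl1 and Oas1e, E330034G19Rik and Oosp1, and Omt2a and Oas1d differed, among neighbours in that order, by more than the larger of their SDs. Together the 10 genes took 1.40% and 1.64% of het translatome, 1.68% and 1.86% of WT translatome, 1.74% and 1.89% of het transcriptome and 1.84% and 2.02% of WT transcriptome counts.

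**Figure D1:**
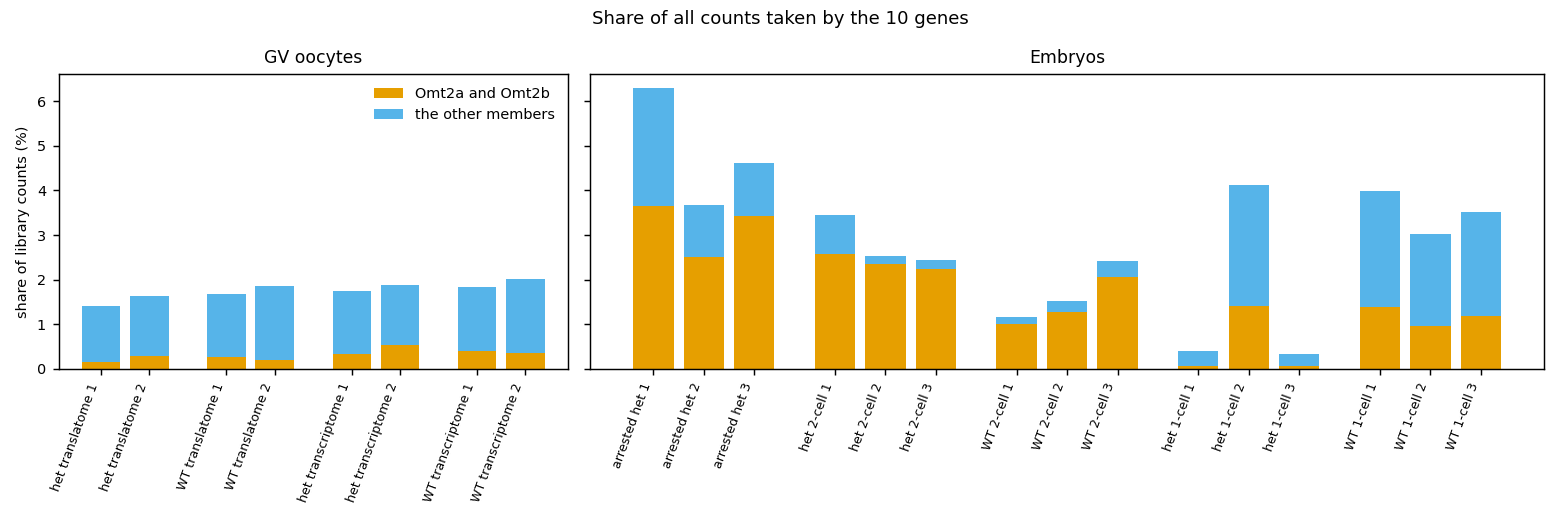
Percent of each library's counts taken by the 10 genes (bar height), split into Omt2a with Omt2b (orange) and the other 8 genes (blue), for the 8 GV libraries and the 15 embryo libraries. The Omt2 part is 84.3% to 85.3% of the bar in WT 2-cell libraries and 31.7% to 35.0% in WT 1-cell libraries, and het 1-cell libraries 1 and 3 have the lowest bars of the embryo libraries.

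The first question in GV oocytes was how much of each mRNA stood on ribosomes relative to its total. Among het oocytes Rfpl4 and Oosp1 were lower in the translatome than in the transcriptome, while the Oas1 pair had more CPM in the translatome, without passing the test. Rfpl4 had 781 and 946 CPM in the het translatome, against 1750 and 1803 CPM in the het transcriptome. It fell by 1.04 on the log2 scale (SE 0.28, adjusted p = 0.0372). Oosp1 had 520 and 837 CPM in the het translatome, against 1196 and 1775 CPM in the het transcriptome, and fell by 1.13 (SE 0.32, adjusted p = 0.0462). For both genes the fractions did not overlap. Calls are made at an adjusted p under 0.05 over all genes, and 8.09% of the 22409 genes tested were called in this comparison, 1.91% as lower.

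The Oas1 copies were the 2 members with positive changes in this comparison. Oas1e had 5317 and 3032 CPM in the het translatome, against 2186 and 1444 CPM in the het transcriptome (log2 1.20, SE 0.43, adjusted p = 0.101). Oas1d had 2951 and 2548 CPM, against 1725 and 1308 CPM (log2 0.86, SE 0.33, adjusted p = 0.117). Each het translatome library lay above each het transcriptome library for both copies, as for 31.6% of all genes. Omt2a (log2 -0.90), Omt2b (-0.90), Tcl1b1 (-0.82) and E330034G19Rik (-0.61) had every translatome library below every transcriptome library, with adjusted p between 0.0975 and 0.173. With Rfpl4 and Oosp1 that made 6 members, and 26.4% of all genes had it. The fractions of Tcl1 (-0.10) and Oosp2 (-0.40) overlapped. The fit with the specimen as a block, which pairs the 2 fractions of one oocyte sample, called 5 members in place of 2: Oas1e higher (log2 1.18, adjusted p = 0.0255) and Oosp1, Rfpl4, Omt2a and Omt2b lower (adjusted p between 0.0167 and 0.0355). Over the 13 alternatives the adjusted p of Oas1e lay between 0.00046 and 0.625 and that of Omt2a between 0.028 and 0.71. Without het translatome library 1 or either het transcriptome library 0 members were called, and without het translatome library 2 or either WT transcriptome library 1 was.

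In WT oocytes 0 members were called between the fractions, where 14.6% of all genes were, and 1 member had an unadjusted p under 0.05. DESeq2 called 0. The pattern of signs was the one seen in het oocytes, with Oas1d (log2 0.63, SE 0.33) and Oas1e (0.83, SE 0.43) above 0 and the other 8 between -0.32 and -0.69. The adjusted p lay between 0.13 and 0.562. For 7 members both WT translatome libraries lay below both WT transcriptome libraries, as did 31.6% of all genes. The median over the 10 was -0.49 in WT and -0.71 in het oocytes, against -0.04 and 0.04 over all genes. Specimens differed, and the highest Oas1e levels of the translatome, 5317 and 6698 CPM, were in het library 1 and WT library 2, which also had the highest sums of oocyte markers. The part of that difference between libraries in the member values was not tested. The translatome over transcriptome ratio of Oas1e was 2.43 and 2.1 in het and 1.09 and 2.32 in WT specimens, and that of Rfpl4 0.447 and 0.525 in het and 0.84 and 0.488 in WT specimens. Without WT translatome library 1, 1 member was called (Oas1e, whose log2 change ran from -0.05 to 1.37 and adjusted p from 0.0266 to 0.957 over 13 alternatives).

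**Figure D2:**
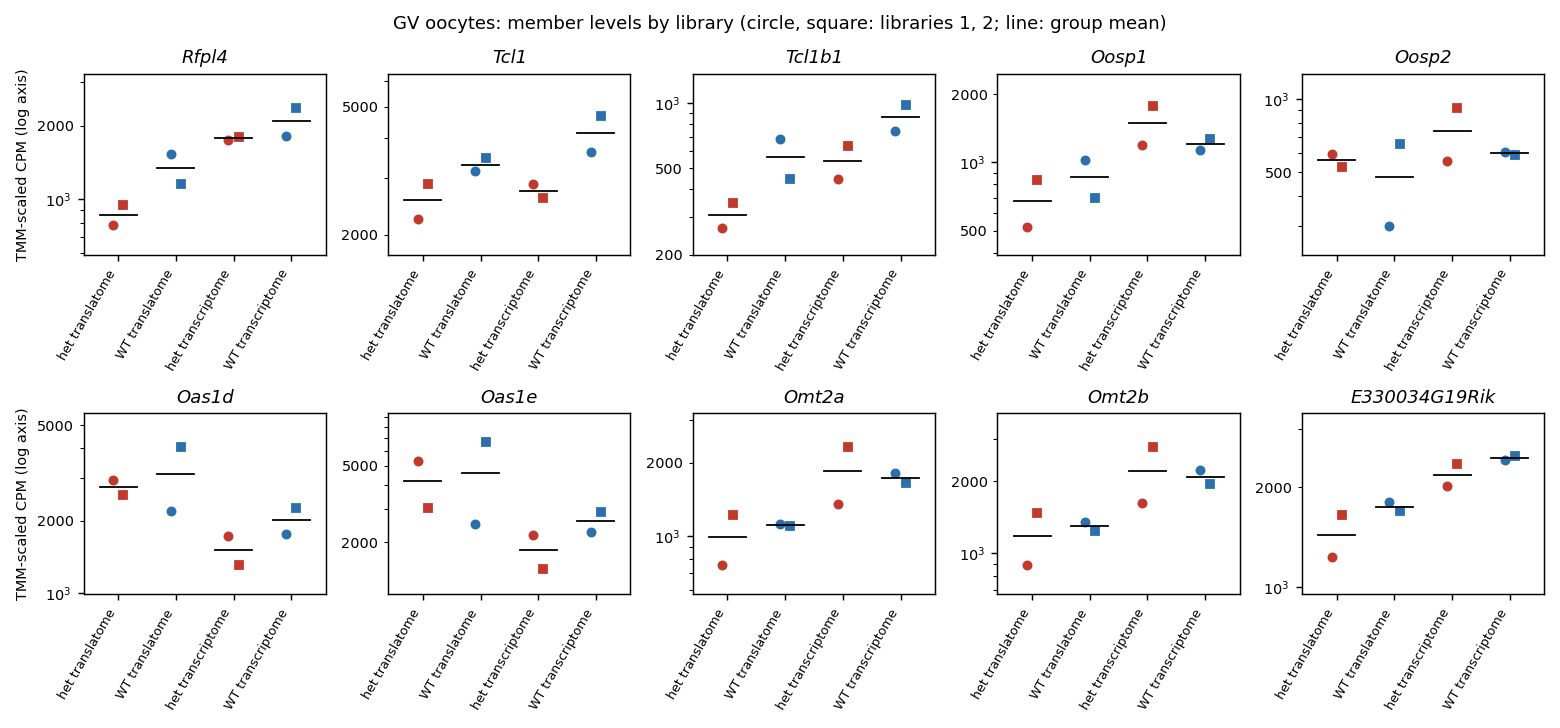
TMM-scaled CPM of each of the 10 genes (log axis, 1 panel per gene) in the 2 libraries of each GV group, with the group mean as a line. The translatome libraries lie below the transcriptome libraries of the same genotype for most genes, and above them for Oas1d and Oas1e in het oocytes.

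Whether heterozygosity altered these mRNAs in GV oocytes was asked in each fraction. In the translatome 0 of the 10 members were called, where 4.61% of all genes were, with 2 members at an unadjusted p under 0.05. DESeq2 called 1. The lowest value belonged to Tcl1b1, with 267 and 346 CPM in the het translatome and 682 and 446 CPM in the WT translatome (log2 -0.88, SE 0.30, adjusted p = 0.112). DESeq2 gave it an adjusted p of 0.0377, within a range of 0.0377 to 0.457 over 13 alternatives. The translatome levels of Rfpl4 were 781 and 946 CPM for het oocytes and 1524 and 1153 CPM for WT oocytes (log2 -0.63, SE 0.28, adjusted p = 0.204). For these 2 genes, Tcl1 and E330034G19Rik both het libraries lay below both WT libraries, as they did for 24.9% of all genes. The other 6 members overlapped, and the changes of the 10 ran from -0.88 to 0.23.

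In the transcriptome 0 members were called as well, where 2.55% of all genes were, with 1 at an unadjusted p under 0.05. DESeq2 called 0. Tcl1 measured 2878 and 2611 CPM in the het transcriptome and 3609 and 4690 CPM in the WT transcriptome (log2 -0.60, SE 0.28, adjusted p = 0.259). Tcl1b1 measured 446 and 636 CPM in het transcriptomes and 744 and 978 CPM in WT transcriptomes (log2 -0.67, SE 0.30, adjusted p = 0.241). Neither gene's groups overlapped, and 6 members in all had both het libraries below both WT libraries, as had 28.5% of all genes. The genotype changes in the 2 fractions were compared by an interaction term, and 0 members differed (0.0134% of all genes did), with 0 at an unadjusted p under 0.05 and 0 by DESeq2. The differences ran from -0.65 for Oosp1 (SE 0.45) to 0.37 for Oas1e (SE 0.60).

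Markers of granulosa cells, the somatic cells around the oocyte, moved with genotype in the same libraries. All 14 were above 0 in each translatome library. Their sum was 635 and 953 CPM in the het translatome and 186 and 372 CPM in the WT translatome. Of the 14, 4 were called higher, where 2.61% of all genes were. In the transcriptome the sum was 370 and 272 CPM for het and 111 and 197 CPM for WT oocytes. There 5 of 14 were called higher, where 1.41% of all genes were. Their part in the member values was not tested.

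The second question was what became of these mRNAs between the 1-cell and the 2-cell stage. All 2-cell embryos had spent 24 h in culture and the 1-cell embryos were untreated, so stage and culture cannot be told apart in either genotype. Of the 10 members 7 fell in WT embryos, where 17.9% of 23656 genes fell and 46.4% were called in either direction. For 8 members every 2-cell library lay below every 1-cell library, as for 28.9% of all genes. The median change over the 10 was -3.79, against 0.59 over all genes. Poly(A) tails were not measured.

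Tcl1, the AKT activator, had 411, 602 and 1051 CPM in WT 2-cell embryos, against 11020, 7413 and 8186 CPM in WT 1-cell embryos. It fell by 3.69 (SE 1.35, adjusted p = 0.0363). The 3 2-cell libraries lay far below all 1-cell libraries. Tcl1b1, its cluster copy, had 179, 291 and 684 CPM in WT 2-cell against 2306, 1810 and 1755 CPM in WT 1-cell embryos and fell by 2.35 (SE 0.90, adjusted p = 0.0431). Its groups did not overlap either. Of 22 alternative analyses, 14 called Tcl1 and 12 called Tcl1b1, with adjusted p up to 0.113 and 0.141. Without any 1 WT 1-cell library, or WT 2-cell library 1 or 2, 5 members were called.

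Rfpl4 had 68.3, 122 and 180 CPM in WT 2-cell embryos, against 5626, 3822 and 3535 CPM in WT 1-cell embryos. It fell by 5.13 (SE 1.23, adjusted p = 0.00394). E330034G19Rik had 194, 236 and 348 CPM in WT 2-cell against 6140, 4516 and 4924 CPM in WT 1-cell embryos and fell by 4.32 (SE 1.24, adjusted p = 0.0114). The levels of Rfpl4 and E330034G19Rik, on chromosomes 7 and 14, correlated at Pearson's r = 0.993 over the 13 embryo libraries other than het 1-cell 1 and 3, the highest of the 45 pairs of members. The libraries share a table and its scaling, and the value is given as a description.

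The secreted proteins Oosp1 and Oosp2 differed in size of change. Oosp2 had 14.2, 16.1 and 28.3 CPM in WT 2-cell against 318, 295 and 253 CPM in WT 1-cell embryos and fell by 3.88 (SE 0.82, adjusted p = 0.00187). Oosp1 had 798, 815 and 1105 CPM in WT 2-cell against 3303, 2429 and 2596 CPM in WT 1-cell embryos. These groups do not overlap, yet the change of -1.62 (SE 1.00, adjusted p = 0.191) did not pass in the fit of all 15 libraries, whose shared spread includes het 1-cell libraries 1 and 3. Without these 2 libraries Oosp1 stood at -1.69 (SE 0.52, adjusted p = 0.0212), and 8 members were called. With only the WT libraries in the fit it stood at -1.50 (adjusted p = 0.000257), and over 22 alternatives its adjusted p lay between 0.000257 and 0.324.

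The Oas1 copies had the 2 lowest changes. Oas1e had 12.5, 16.4 and 20.9 CPM in WT 2-cell embryos, against 1091, 1156 and 1373 CPM in WT 1-cell embryos. It fell by 6.18 (SE 0.90, adjusted p = 0.000191). Oas1d had 39.7, 60.8 and 75.0 CPM in WT 2-cell against 2625, 2394 and 3282 CPM in WT 1-cell embryos and fell by 5.56 (SE 0.98, adjusted p = 0.000563). Both were called in all 22 alternatives.

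Omt2a and Omt2b stayed among the most abundant mRNAs at both stages. Omt2a had 5025, 5850 and 9818 CPM in WT 2-cell embryos, against 7919, 5353 and 6591 CPM in WT 1-cell embryos (log2 0.06, SE 1.13, adjusted p = 0.973). Omt2b had 4950, 5772 and 9760 CPM in WT 2-cell against 9579, 5712 and 6644 CPM in WT 1-cell embryos (log2 -0.10, SE 1.17, adjusted p = 0.953). The groups overlap for both genes, and neither was called in any of the 22 alternatives, over which the change of Omt2a ran from -0.28 to 0.25 and that of Omt2b from -0.44 to 0.15. Without the flat het 1-cell libraries their SEs were 0.42 and 0.46. By counts per kb they ranked 11 to 34 among all genes in WT 2-cell libraries, against 9 to 16 in WT 1-cell libraries, whereas Oas1e ranked 4619 to 6145 against 89 to 135. Both copies thereby came to hold 84.3% to 85.3% of the members' counts in WT 2-cell libraries, against 31.7% to 35.0% in WT 1-cell libraries.

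**Figure D3:**
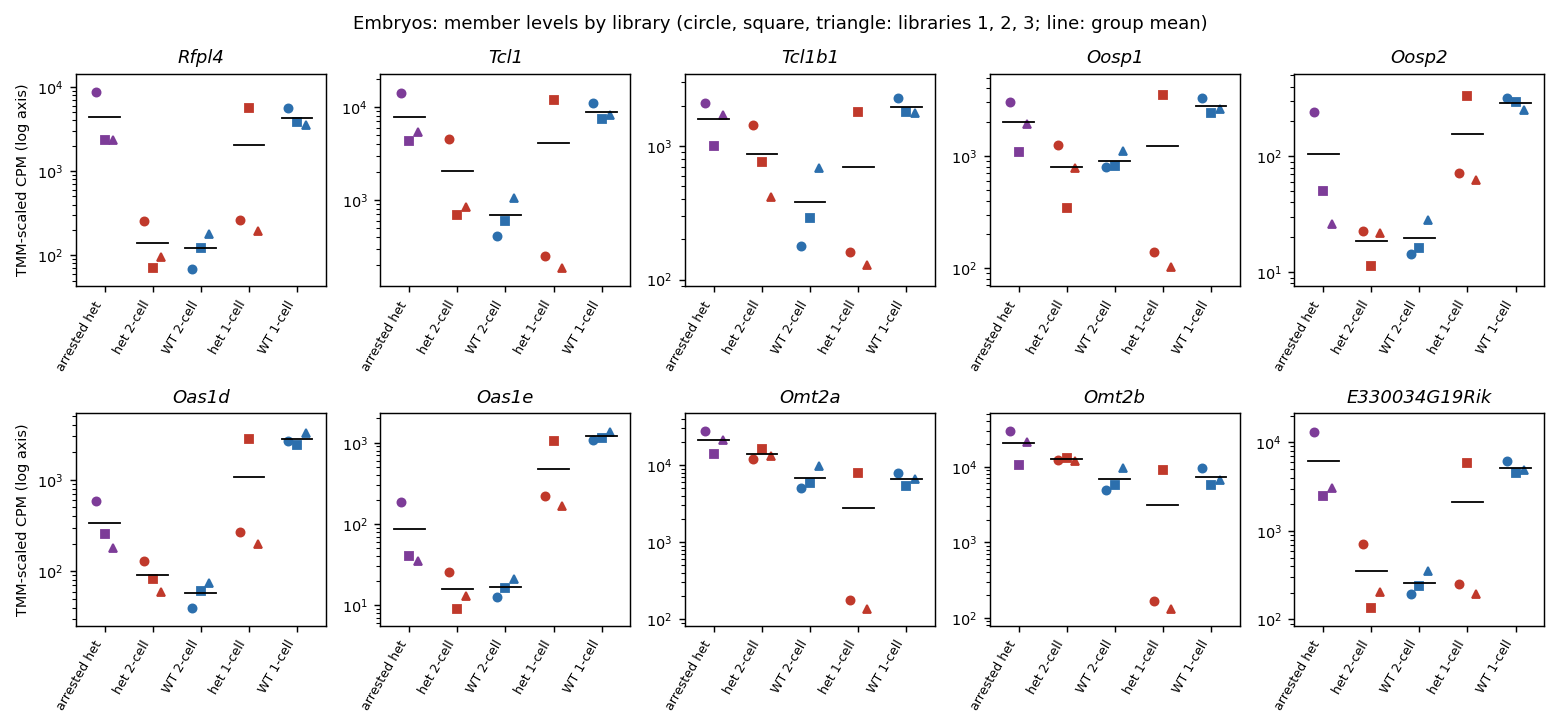
TMM-scaled CPM of each of the 10 genes (log axis, 1 panel per gene) in the 3 libraries of each embryo group, with the group mean as a line. Omt2a and Omt2b stay at 4950 CPM or more in every group but het 1-cell, while the other 8 genes are lower in every 2-cell library than in every WT 1-cell library, and het 1-cell libraries 1 and 3 (circle and triangle) lie far below library 2 in all panels.

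Set in order by TPM, the members changed places over the stages. In WT 1-cell embryos Tcl1 (8624 ± 1206 TPM), Omt2b (8458 ± 1688) and Omt2a (8131 ± 1219) led and lay within their SDs of each other. Oosp1 (5133 ± 496), E330034G19Rik (5120 ± 504) and Rfpl4 (4503 ± 763) followed, again within their SDs. Tcl1b1 (3381 ± 229), Oas1d (2496 ± 588), Oas1e (1222 ± 250) and Oosp2 (767 ± 36.3) came last, each apart from its neighbours by more than the larger SD (n = 3 throughout). In WT 2-cell embryos Omt2a (6294 ± 2316) and Omt2b (5903 ± 2203) led, followed by Oosp1 (1246 ± 233), with Tcl1 (499 ± 237) and Tcl1b1 (495 ± 338) level with each other. Against the GV transcriptome, which was scaled in its own table so that no test was made, WT 1-cell means were 3.81 times as high for Omt2a, 3.5 times for Omt2b and 2.07 to 2.31 times for Tcl1, Tcl1b1, Rfpl4, Oosp1 and E330034G19Rik. For Oas1d the ratio was 1.37, and Oosp2 and Oas1e stood at 0.483 and 0.468 of the GV level.

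Oas1d and Oas1e did not keep their ratio. The counts of Oas1e over those of Oas1d stood at 1.13 to 1.65 in WT GV libraries of both fractions, 0.416 to 0.483 in WT 1-cell and 0.269 to 0.316 in WT 2-cell libraries. Het libraries had 1.1 to 1.8 in GV oocytes and 0.11 to 0.22 in 2-cell embryos. Het 1-cell libraries 1, 2 and 3 had 0.814, 0.372 and 0.835, of which 1 and 3 are the flat libraries. Arrested libraries had 0.321, 0.156 and 0.196. The ratio of Omt2a to Omt2b stood at 0.816 to 0.881 over all GV libraries, 0.827 to 0.992 in WT 1-cell and 1.01 to 1.02 in WT 2-cell libraries, but it spread more in het embryos, at 0.977, 1.24 and 1.1 in 2-cell and 0.929, 1.32 and 1.02 in arrested libraries. These ratios compare counts that are not corrected for length, so only their differences between libraries are described.

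In het embryos the comparison of 2-cell with 1-cell rests on 1-cell libraries that differ from each other. Of the 10 members 4 fell, where 13.9% of all genes fell and 36.7% were called: Oas1e (log2 -4.90, SE 0.85, adjusted p = 0.000878), Oas1d (-3.59, adjusted p = 0.00659), Oosp2 (-3.06, adjusted p = 0.00846) and Rfpl4 (-3.86, adjusted p = 0.0177). Rfpl4 had 254, 70.3 and 95.1 CPM in het 2-cell embryos, against 260, 5639 and 193 CPM in het 1-cell embryos. The groups overlap, and its adjusted p over 22 alternatives lay between 0.00414 and 0.431. Without het 2-cell library 2 or 3, 3 members fell. Oas1e had 25.5, 9.00 and 13.1 CPM in het 2-cell against 219, 1036 and 167 CPM in het 1-cell embryos, which do not overlap. Omt2a and Omt2b had every 2-cell library above every 1-cell library, as had 32.2% of all genes, and Oas1d, Oas1e and Oosp2 had the opposite, as had 26.0%. Without het 1-cell libraries 1 and 3 the fit leaves 1 het 1-cell library, whose spread is taken to be that of the other groups, and 6 members fell, with E330034G19Rik (-4.21, adjusted p = 0.0147) and Oosp1 (-2.27, adjusted p = 0.0496) added. Without het 1-cell library 2 the split turned to 5 higher and 1 lower, with Omt2a at 6.49 (adjusted p = 2.92e-05). Without libraries 1 and 3 instead, Omt2a stood at 0.68 and Omt2b at 0.348. Over 22 alternatives the adjusted p lay between 0.00805 and 0.512 for E330034G19Rik, between 0.00566 and 0.883 for Oosp1 and between 2.92e-05 and 0.519 for Omt2a.

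Het 2-cell library 1 was also the highest of its group for every member but Omt2a and Omt2b. Tcl1 had 4553, 684 and 840 CPM in the 3 het 2-cell libraries, E330034G19Rik 718, 134 and 203 CPM and Tcl1b1 1447, 762 and 418 CPM. Rfpl4 had 254, 70.3 and 95.1 CPM, Oosp1 1263, 347 and 782 CPM and Oas1d 129, 81.6 and 59.5 CPM. Library 1 was the highest for Oas1e too, and by little for Oosp2 (22.8, 11.2 and 21.7 CPM). Omt2a (12140, 16440 and 13210 CPM) and Omt2b did not show it as the highest. When this library was left out together with het 1-cell libraries 1 and 3, 7 members fell, with Tcl1 at -4.09 (SE 0.78, adjusted p = 0.0101), and the adjusted p of Tcl1 over 22 alternatives lay between 0.0101 and 0.773. That alternative was chosen after seeing the data.

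Between het and WT embryos of the same stage 0 members were called at 1 cell, where 0.0% of all genes were, and 0 at 2 cells, where 0.00423% were. No member had an unadjusted p under 0.05 at either stage. DESeq2 called 0 at both, but it gave Rfpl4, Tcl1 and E330034G19Rik no adjusted p, so these could not be called. All 10 changes at 1 cell lay below 0, with a median of -1.26 against 0.11 over all genes, and they came from het libraries 1 and 3. Tcl1 measured 252, 11950 and 185 CPM in the het 1-cell libraries and 11020, 7413 and 8186 CPM in the WT 1-cell libraries, so that het library 2 lay above every WT library. Only Oas1e had every het library below every WT library, as had 6.08% of all genes. Without libraries 1 and 3 the 10 changes ran from -0.20 for Oas1e to 0.45 for Tcl1, each with an adjusted p of 1. Without library 2 instead, 8 of 10 were called lower, with values such as -5.35 for Tcl1 and -5.42 for Omt2a. Over 22 alternatives their adjusted p lay between 0.0112 and 1 for Tcl1 and between 0.000305 and 1 for Omt2a.

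At 2 cells the Omt2 pair had higher levels in every het than in every WT library, which 5.64% of all genes had. Omt2a measured 12140, 16440 and 13210 CPM in the het 2-cell libraries and 5025, 5850 and 9818 CPM in the WT 2-cell libraries (log2 1.01, SE 1.14, adjusted p = 1). For Omt2b the levels were 12430, 13220 and 12030 CPM in het 2-cell embryos and 4950, 5772 and 9760 CPM in WT 2-cell embryos (log2 0.88, SE 1.18, adjusted p = 1). The 2 groups are separate in both genes, and neither passed in any of the 22 alternatives. Tcl1 (1.56, SE 1.24) and Tcl1b1 (1.19, SE 0.86) overlapped between the genotypes, and without the 3 libraries that stand apart they stood at 0.12 and 0.59. The other 6 members ran from -0.18 to 0.62.

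The third question was where arrested embryos stand, which spent 24 h in culture without dividing. They differed from both 1-cell groups in time in culture, and from WT 1-cell embryos also in genotype. In the comparison with WT 1-cell embryos the effects of genotype, culture and arrest cannot be told apart. All 3 comparisons of arrested embryos use the same arrested libraries. Against WT 1-cell embryos the Oas1 copies fell, the 2 members called, where 5.44% of all genes fell and 19.5% were called. Oas1e had 186, 40.3 and 35.4 CPM in arrested embryos, against 1091, 1156 and 1373 CPM in WT 1-cell embryos, and fell by 3.79 (SE 0.81, adjusted p = 0.00665). Oas1d had 580, 258 and 180 CPM in arrested against 2625, 2394 and 3282 CPM in WT 1-cell embryos and fell by 3.03 (SE 0.87, adjusted p = 0.0251). Neither gene's groups overlapped. Without any 1 WT 1-cell library, or arrested library 2 or 3, 1 member was called, with Oas1d at adjusted p up to 0.0827 over 22 alternatives, and without het 1-cell library 2, 4 were.

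Oosp2 had 240, 50.5 and 26.2 CPM in arrested against 318, 295 and 253 CPM in WT 1-cell embryos (log2 -1.45, SE 0.75, adjusted p = 0.174), with every arrested library below. It shared that with the Oas1 copies and 15.3% of all genes. Tcl1 had 13950, 4266 and 5353 CPM in arrested against 11020, 7413 and 8186 CPM in WT 1-cell embryos (log2 -0.18, SE 1.22). Rfpl4 had 8612, 2346 and 2362 CPM against 5626, 3822 and 3535 CPM (log2 0.04, SE 1.03), and E330034G19Rik 13010, 2479 and 3042 CPM against 6140, 4516 and 4924 CPM (log2 0.25, SE 1.08). These 3 genes show the same layout, with arrested library 1 above and arrested libraries 2 and 3 below all WT 1-cell libraries. Tcl1b1 (-0.29) and Oosp1 (-0.47) overlapped as well, and the 5 adjusted p lay between 0.78 and 0.997.

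Omt2a and Omt2b stood above the 1-cell level in every arrested library. Omt2a had 27670, 14040 and 21470 CPM in arrested against 7919, 5353 and 6591 CPM in WT 1-cell embryos (log2 1.67, SE 1.16, adjusted p = 0.321). Omt2b had 29790, 10620 and 21020 CPM in arrested against 9579, 5712 and 6644 CPM in WT 1-cell embryos (log2 1.49, SE 1.19, adjusted p = 0.397). All 3 arrested libraries lay above all WT 1-cell libraries, as for 11.0% of all genes. Without het 1-cell libraries 1 and 3 Omt2a rose (log2 1.51, SE 0.43, adjusted p = 0.0349) and Omt2b stood at 1.34 (SE 0.47, adjusted p = 0.077), within adjusted p of 0.011 to 0.498 and 0.0275 to 0.591 over 22 alternatives. By counts per kb Omt2a was the 8th, 13th and 6th most abundant gene of the 3 arrested libraries.

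Arrested library 1 differed from the others beyond these genes. The 10 genes took 6.30%, 3.67% and 4.61% of the counts of the 3 arrested libraries. Markers of the 2-cell stage summed to 462 CPM in arrested library 1 and 3606 and 2537 CPM in libraries 2 and 3, with 10 of 11 markers above 0 in each. Their sums were 256 to 279 CPM in WT 1-cell, 879 to 1748 CPM in WT 2-cell and 905 to 3622 CPM in het 2-cell embryos. Oocyte markers summed to 15380 CPM in arrested library 1 and 5113 and 4856 CPM in the other 2. They summed to 13270 to 17790 CPM in WT 1-cell, 5238 to 6770 CPM in WT 2-cell and 4141 to 11440 CPM in het 2-cell embryos. The part of both marker sets in the member values was not tested. Without arrested library 1 Oas1e stood at -5.07, Oosp2 fell (log2 -2.97, adjusted p = 0.0075, range 0.0075 to 0.396 over 22 alternatives), Tcl1 stood at -0.97 and Omt2a at 1.34.

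**Figure D4:**
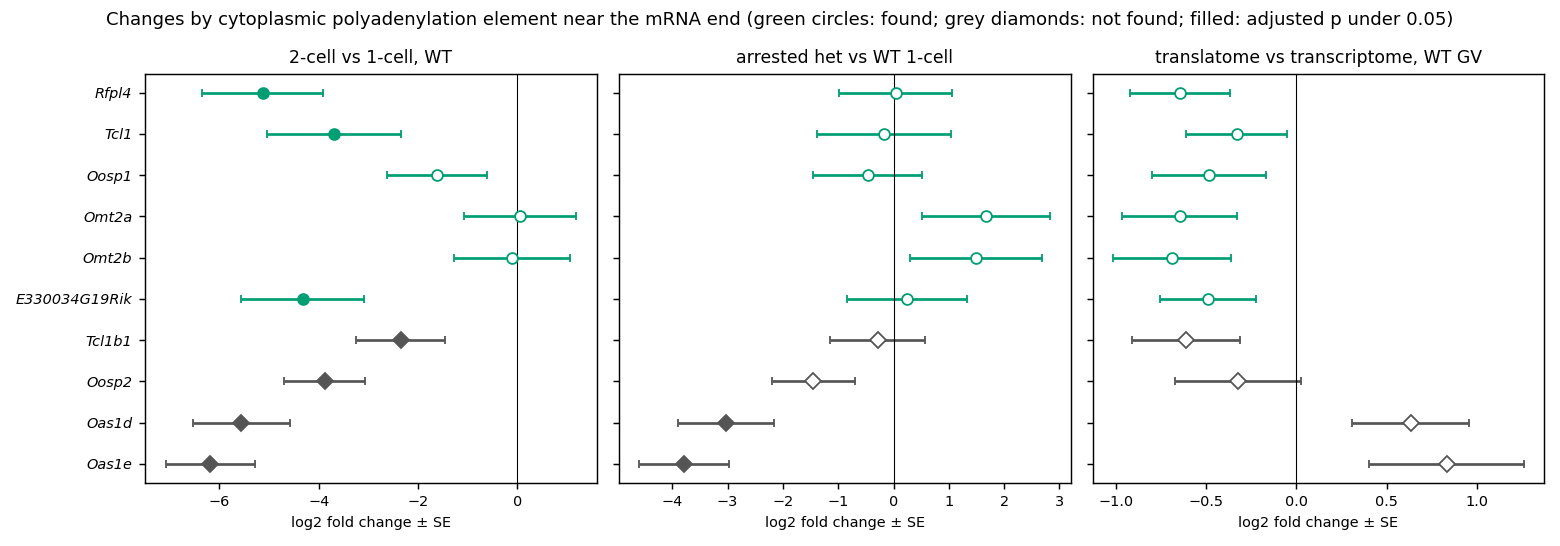
Log2 fold change ± SE of the 10 genes in 3 of the 12 comparisons. Green circles are genes whose last bases hold a cytoplasmic polyadenylation element, grey diamonds the others and filled symbols an adjusted p under 0.05. Oas1d and Oas1e, without the element, lie lowest in both embryo comparisons and highest in the GV comparison, and Omt2a and Omt2b, with it, lie highest in both embryo comparisons.

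Read by the 3′ end, the 6 mRNAs with the element (Rfpl4, Tcl1, Oosp1, Omt2a, Omt2b and E330034G19Rik) ran from -0.47 to 1.67 in arrested against WT 1-cell embryos, and the 4 without it (Tcl1b1, Oosp2, Oas1d and Oas1e) from -3.79 to -0.29. In WT 2-cell against 1-cell embryos the ranges were -5.13 to 0.06 with the element and -6.18 to -2.35 without it. In the WT translatome against the transcriptome they were -0.69 to -0.33 with it and -0.61 to 0.83 without it. These are 3 of the 12 comparisons, and others show less of a split. In arrested against het 2-cell embryos the ranges were 0.60 to 4.99 with the element and 0.87 to 2.51 without it. In het against WT 2-cell embryos they were -0.18 to 1.56 with it and -0.08 to 1.19 without it. The ranges overlap in each comparison given here, the copies within a pair are not independent, and no test was made.

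Against het 1-cell embryos 1 member fell in the arrested group, Oas1e (log2 -2.44, SE 0.76, adjusted p = 0.045), where 3.91% of all genes fell and 13.9% were called. Its groups overlap, at 186, 40.3 and 35.4 CPM in arrested and 219, 1036 and 167 CPM in het 1-cell embryos. The call was lost without het 1-cell libraries 1 and 3 (log2 -3.68, adjusted p = 0.0692), and over 22 alternatives the adjusted p lay between 0.00437 and 0.26. Without het 1-cell library 1, any 1 WT library, het 2-cell library 2 or 3, or arrested library 2 or 3, 0 members were called. Without arrested library 1 there were 2, and without het 1-cell library 2 there were 7, all higher. Every arrested library lay above every het 1-cell library for Omt2a (log2 2.94, SE 1.22, adjusted p = 0.113) and Omt2b (2.73, SE 1.25, adjusted p = 0.145), as for 9.42% of all genes. Without het 1-cell libraries 1 and 3 Omt2a stood at 1.233 and Omt2b at 1.025.

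Against het 2-cell embryos, which had the same label and the same time in culture, all 10 changes were above 0 in arrested embryos and 2 members rose, where 3.85% of all genes rose and 8.4% were called. Rfpl4 had 8612, 2346 and 2362 CPM in arrested against 254, 70.3 and 95.1 CPM in het 2-cell embryos and rose by 4.99 (SE 1.22, adjusted p = 0.0239). E330034G19Rik had 13010, 2479 and 3042 CPM in arrested against 718, 134 and 203 CPM in het 2-cell embryos and rose by 4.14 (SE 1.23, adjusted p = 0.0496). For these 2, Oosp2 (log2 2.51, adjusted p = 0.0566), Oas1e (2.46, adjusted p = 0.057) and Oas1d (1.92, adjusted p = 0.15) every arrested library lay above every het 2-cell library, as for 9.8% of all genes.

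The median of the 10 was 1.94 in this comparison, against -0.005 over all genes. Tcl1 (1.96, SE 1.26), Oosp1 (1.33), Tcl1b1 (0.87), Omt2b (0.71) and Omt2a (0.60) overlapped between the groups. Without arrested library 1, or het 2-cell library 2 or 3, 0 members were called, and without any 1 WT library 1 was called. Without het 2-cell library 1 there were 3, without arrested library 2 or 3 there were 4, and without het 1-cell library 2 there were 5. With only these 6 libraries in the fit 0 were called, and Rfpl4 stood at 4.96 with an adjusted p of 0.259, within 0.00511 to 0.259 over 22 alternatives.

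Over the 13 embryo libraries other than het 1-cell 1 and 3, the members fell into 2 patterns. The mean of their standardised log levels correlated at 0.982 with Tcl1, 0.973 with E330034G19Rik, 0.967 with Rfpl4, 0.932 with Tcl1b1 and 0.83 to 0.895 with the Oosp and Oas1 genes, but at 0.404 with Omt2b and 0.265 with Omt2a, which correlated at 0.972 with each other. Among 7061 other genes averaging 10 CPM or more, the 5 whose log levels were most like that mean were Mphosph6 (r = 0.988), Lama4 (0.987), Pld1 (0.987), Cnot7 (0.985) and Lyplal1 (0.984). Mphosph6, an RNA exosome cofactor, averaged 850 CPM in WT 2-cell and 10400 CPM in WT 1-cell embryos. Cnot7, a catalytic subunit of the CCR4-NOT deadenylase, averaged 450 CPM in WT 2-cell and 2406 CPM in WT 1-cell embryos.

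Close copies that are not among the 10 followed the stages in their own ways. Of 14 copies tested, 9 fell and 1 rose in WT 2-cell against WT 1-cell embryos, where 17.9% of all genes fell and 46.4% were called, with a median of -2.60. Oosp3 had 135 ± 47.2 CPM in WT 2-cell and 1765 ± 524 CPM in WT 1-cell embryos (log2 -3.71), Tcl1b2 194 ± 133 and 1703 ± 328 CPM (-3.13), and Oas1c 11.2 ± 4.49 and 229 ± 87.6 CPM (-4.36; SD, n = 3). Rfpl4b rose, at 147 ± 31.8 CPM in WT 2-cell embryos, and had no count in WT 1-cell embryos. It also rose in arrested against WT 1-cell embryos, at 43.2 ± 46.1 CPM, while Oas1c and Oas1h fell there. In the GV translatome of het against WT oocytes Tcl1b3 fell by 1.05 (SE 0.27, adjusted p = 0.0447), with 185 ± 19.8 CPM in het and 383 ± 72.8 CPM in WT oocytes (SD, n = 2), and it shares sequence with the other Tcl1b copies.

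The wider set of abundant oocyte genes gives a frame for the stage change. Of 25 tested, among them the zona pellucida genes and Gdf9, 20 fell and 0 rose in WT 2-cell against WT 1-cell embryos. Their median was -2.60, and 17.9% of all genes fell. In arrested against WT 1-cell embryos 14 fell and 0 rose with a median of -1.70, where 5.44% of all genes fell. Between het and WT samples 0 of the 25 were called, in either GV fraction or at either embryo stage. The shares of all genes were 4.61% in the translatome, 2.55% in the transcriptome, 0.0% at 1 cell and 0.00423% at 2 cells. At such shares the 0 is no result about the list. In the WT GV translatome against the transcriptome, where 8.95% of all genes rose, 4 rose and 0 fell: Nlrp5 (log2 2.41), Padi6 (2.04), Zp2 (1.85) and Nlrp14 (1.59). The median of that list was -0.01, beside -0.49 for the 10 members.

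Partners and pathways of the members were read in the same way. Of 20 genes of AKT signalling, through which TCL1 acts, 2 rose and 4 fell in WT 2-cell against WT 1-cell embryos, a smaller share than the 46.4% of all genes called, so the count is no result about the pathway. Tsc2, part of a complex that inhibits mTORC1, was among those that rose (log2 1.98), and Foxo1, Foxo3, Pik3r1 and Rictor fell (-2.10 to -1.51). Tsc2 also rose in arrested against WT 1-cell embryos, by 3.85. Akt1 rose in the het against the WT GV translatome (log2 1.51, SE 0.26, adjusted p = 0.00877). Of 13 genes of the OAS and interferon pathway, 5 rose and 1 fell in WT 2-cell against WT 1-cell embryos, about the share called among all genes. Those that rose included the RNase L inhibitor Abce1 (2.51) and the signal transducer Stat2 (3.06). Of 3 reported RFPL4 partners, the ubiquitin-conjugating enzyme Ube2a (2.69) and the proteasome subunit Psmb1 (3.80) rose in the same comparison and Ube2a also rose in arrested embryos (2.70), while Ccnb1 was not called in either.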

How the data were processed

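The authors deposited raw read counts per gene in 2 tables, 1 for 8 GV libraries and 1 for 15 embryo libraries. The tools named are featureCounts 1.6.5, HISAT2 2.1.0 and Trim Galore 0.6.4, with the mm10 genome, per the submitters' processing notes. Which annotation release and strand setting were used, and how reads with several matches were counted, is not given in sources used here. RiboLace beads pulled down the ribosome-bound mRNA and a full-length single-cell kit amplified both fractions, per the labels' protocols, which mention no unique molecular tags.

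The test was edgeR's (4.0.16, R 4.3.3) quasi-likelihood test on counts, after filterByExpr and TMM scaling, on 22409 genes in GV oocytes and 23656 in embryos, with all groups of a table in one model and Benjamini-Hochberg adjustment over all genes. The SE comes from the F statistic. No label states that replicates are different animals, so the p-values reflect sample-to-sample spread that may be technical. The specimen number in the descriptions pairs the 2 fractions of a GV sample and entered as an alternative block. Deviations of paired libraries correlated at 0.282 in het and 0.00271 in WT oocytes over 4929 genes. Het and WT libraries of the same number, which share no specimen, ran from -0.492 to 0.0783. The value of 0.282 therefore cannot be read as a sign of pairing. TPM, ranks and coordinates use GENCODE exons on mm10, matched by identifier for 55154 of 56196 genes. The test across all genes was checked on simulated counts with a fixed spread for all genes. That check does not cover a spread as large as that among the het 1-cell libraries. DESeq2 1.42.0, other scalings, filters, groupings and omitted libraries were tried as alternatives.

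The members, gene lists and tests were chosen with earlier results of these data known. All 10 members are named in every comparison, list genes where they were called, and the 5 genes with the most similar pattern by correlation over 13 embryo libraries. A gene of the AKT list is not reported here.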

Additional observations from a re-analysis of the deposited data

How the results depend on the processing

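The log2 changes of the 18 results called for single members were recomputed in 386 cases: 308 kept their direction and side of the threshold, 78 kept the direction alone and 0 changed sign. Oas1e in 2-cell against 1-cell embryos of either genotype and in arrested against WT 1-cell embryos, and Oas1d and Oosp2 in WT 2-cell against 1-cell embryos, were called in every alternative. Numbers of members called moved as follows. DESeq2 called 1 in the het against WT GV translatome, 7 between the het fractions, 4 in WT 2-cell against 1-cell embryos and 3 in arrested against het 1-cell embryos. It gave Rfpl4, Tcl1 and E330034G19Rik no adjusted p in 2-cell against 1-cell or het against WT embryos. Rfpl4 also got none in arrested against het 1-cell embryos. Without the filter on low counts the number was 1 in the het against WT GV translatome, 1 between the WT fractions, 6 between the het fractions and 4 in arrested against het 2-cell embryos. RLE scaling gave 0 in arrested against het 1-cell and 1 in arrested against het 2-cell embryos. With only the groups compared it was 0 in both. With the replicate number as a block it was 0 and 1, and with the specimen block 5 between the het fractions. The blocks changed no other count by over 1.5 times. Embryo numbers and het and WT oocyte numbers share no stated source, and the correlations of same-numbered embryo libraries had mixed signs, from -0.572 to 0.339. Without het 1-cell libraries 1 and 3 it was 0 in arrested against het 1-cell embryos, and with het 2-cell library 1 also left out it was 7 in het 2-cell against 1-cell and 5 in arrested against het 2-cell embryos. Leaving out single libraries gave 0 to 1 between the WT fractions, 0 to 3 between the het fractions, 0 to 8 in het against WT 1-cell, 5 to 8 in WT 2-cell against 1-cell, 3 to 6 in het 2-cell against 1-cell, 1 to 4 in arrested against WT 1-cell, 0 to 7 in arrested against het 1-cell and 0 to 5 in arrested against het 2-cell embryos. The cause was not tested. Summing close copies left the calls of the Oas1 pair in 2-cell embryos in place (-5.73 in WT and -3.88 in het) and gave the Omt2 pair -0.02 in WT. With 2 libraries a GV group and 3 an embryo group, changes of the size of the SEs could not be told from 0.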
